A study of Mus musculus with 8 samples.

Results

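Fatty acid uptake, binding and activation in the liver was followed through 10 genes, Cd36, Slc27a2, Slc27a4, Fabp1, Fabp2, Fabp4, Acsl1, Acsl3, Acsl4 and Acsl5, whose symbols were looked up among the 52636 genes of the deposited count tables by Ensembl identifier. Of the 10 genes, 10 were found and 10 passed the low-count filter that left 15248 genes for testing. Livers came from 8 male wild-type C57BL/6J mice, 1 library per mouse. Mice 303, 311, 314 and 315 received AAV8-GFP and mice 308, 309, 316 and 319 received AAV8-AGXT, an adeno-associated virus serotype that reaches the liver, carrying GFP or human AGXT behind the TBG promoter, which is active in hepatocytes. All 8 mice were injected at 7 weeks of age, started at 8 weeks of age on a diet rich in fat, cholesterol and fructose (the MASH diet, labelled NASH diet), and stayed on it for 24 weeks. Every comparison below is therefore between mice that shared the virus, the promoter and the diet, and no chow-fed mice entered it.

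Long-chain fatty acids reach hepatocytes from plasma albumin and from lipoprotein remnants. At the cell surface CD36 and the fatty acid transport proteins of the Slc27 family take part in uptake, in the cytosol fatty acid-binding proteins keep the fatty acids soluble, and the long-chain acyl-CoA synthetases of the Acsl family couple them to coenzyme A, which traps them in the cell and commits them to oxidation, esterification or membrane lipids. Many genes of this route are known targets of PPARα, a nuclear receptor that binds fatty acids.

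Levels are given as CPM, the read pairs of a gene relative to all pairs counted on genes in that mouse, scaled by the TMM method of edgeR. Acsl1, the main long-chain acyl-CoA synthetase of the liver, was higher in AAV8-AGXT mice, with 2.15 times the mean level of AAV8-GFP mice, and it alone of the 10 genes passed an adjusted p under 0.05. Slc27a2 and Slc27a4, which encode fatty acid transport proteins, had 1.54 and 1.36 times the AAV8-GFP mean and fell just short of the threshold. Fabp1, the abundant liver fatty acid-binding protein, also separated the groups without overlap, but its spread between mice was wide. Fold changes of the other 6 genes lay between -0.56 and 0.40 on the log2 scale, none passed the test, and the mice of their groups overlapped.

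In all, 1 of the 10 genes was called higher and 0 were called lower by edgeR's quasi-likelihood test with adjustment over all genes tested, where 2.45% of all tested genes were called higher and 1.90% lower. At an unadjusted p under 0.05, 5 of the 10 passed, all with higher means in AAV8-AGXT mice, beside 26.2% of all tested genes in either direction. The groups did not overlap for 4 genes, each higher in AAV8-AGXT mice, where 8.93% of all tested genes separated in that direction and 7.63% in the other. These separations were read on TMM-scaled CPM. The TMM factors also did not overlap, at 1.02 to 1.14 in AAV8-GFP mice and 0.83 to 1.00 in AAV8-AGXT mice. Multiplying each CPM by the factor of its mouse removes this scaling. On that scale the groups overlapped for Acsl1, Slc27a4 and Fabp1, and only Slc27a2 still separated them, by a narrow gap. Each statement below that groups did not overlap in CPM refers to the TMM-scaled values. The DESeq2 Wald test called 3 of the 10 higher, Acsl1, Slc27a2 and Slc27a4, and 0 lower, where it called 7.06% of all tested genes higher. The median log2 fold change was 0.36 over the 10 genes and 0.02 over all tested genes, with 8 of the 10 above 0, beside 7974 of all 15248 tested genes. All tested genes gave 374 higher and 290 lower calls, against 254 and 298 with upper-quartile normalization and 144 and 857 with total counts that carry no composition factor. Total counts moved the median of all tested genes to -0.22, and the log2 fold change was then 0.85 for Acsl1, 0.38 for Slc27a2, 0.20 for Slc27a4, 0.26 for Fabp1, 0.15 for Fabp2, 0.08 for Acsl4, 0.07 for Cd36, -0.02 for Acsl5, -0.63 for Acsl3 and -0.78 for Fabp4.

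**Figure D1:**
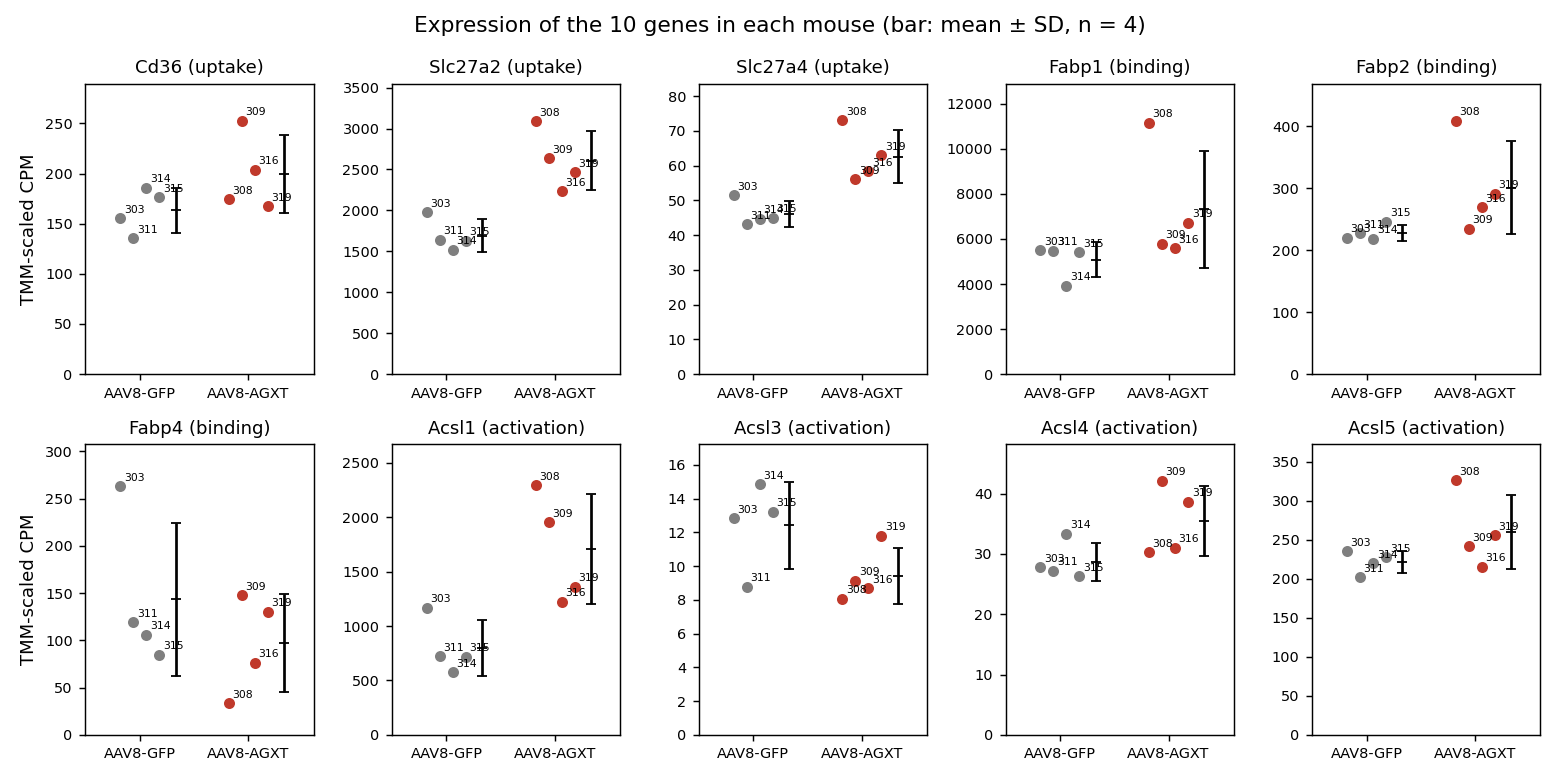
TMM-scaled CPM (y axis, linear from 0) of the 10 genes in each of the 8 mice, with animal numbers beside the points and the mean ± SD (n = 4) as a bar. The groups separated for Slc27a2, Slc27a4, Fabp1 and Acsl1, and mouse 308 was the highest mouse for Slc27a2, Slc27a4, Fabp1, Fabp2, Acsl1 and Acsl5.

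Depth did not limit the comparison of these genes, since each mouse had 17095433 to 28780140 read pairs on genes and the fewest counts of any of the 10 genes in any mouse were 117, for Acsl3. Mouse 308 stood apart from the other 7 in the share of its tallied pairs that fell on genes, 56.3% against 62.4% to 69.1%. It also had the highest summed level of 12 hepatocyte marker genes, 93081 CPM, and the lowest of 10 lipid-associated macrophage markers, 379 CPM. Without mouse 308, edgeR called 0 of the 10 genes, and higher calls among all tested genes were 86, against 374 with all mice. The count was also 0 of the 10 without mouse 311, 314, 315 or 319, and 1 without mouse 303, 309 or 316. Without mouse 308 the log2 fold change was 0.91 for Acsl1, 0.52 for Slc27a2, 0.35 for Slc27a4 and 0.23 for Fabp1. The mouse gene Agxt, on chr1:93135240-93145421, does not measure the human transgene directly. Its levels were 148, 180, 153 and 175 CPM in AAV8-GFP mice and 405, 201, 243 and 371 CPM in AAV8-AGXT mice, without overlap (log2 fold change 0.90 ± 0.22 SE, edgeR adjusted p = 0.0489). With the TMM factors removed, AAV8-GFP mouse 311 lay above AAV8-AGXT mouse 309.

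Promoter sequences are shown for the 4 genes whose groups did not overlap, because binding sites for PPARα and its partner RXR, direct repeats of a short half-site, can be looked for in them. The windows run from 250 bases before to 50 bases after the RefSeq start site (GRCm38.p6), 9 of the 10 genes had an entry, and Acsl1 had 2 start sites, so that 10 windows were searched. Capitals mark the half-site AGGTCA or the direct repeat AGGNCANAGGNCA on either strand, which overlap where the repeat holds a half-site. Fabp1 is given on chr6:71199629-71199928, plus strand, Slc27a2 on chr2:126552774-126553073, plus strand, Slc27a4 on chr2:29802384-29802683, plus strand, and Acsl1 on chr8:46470787-46471086 for its upstream start and on chr8:46490716-46491015 for its downstream start, plus strand.
Fabp1: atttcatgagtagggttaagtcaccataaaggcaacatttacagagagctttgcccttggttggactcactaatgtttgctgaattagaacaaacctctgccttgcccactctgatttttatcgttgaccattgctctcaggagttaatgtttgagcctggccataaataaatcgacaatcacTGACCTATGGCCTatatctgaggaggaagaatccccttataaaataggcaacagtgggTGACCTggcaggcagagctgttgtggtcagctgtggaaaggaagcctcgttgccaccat
Slc27a2: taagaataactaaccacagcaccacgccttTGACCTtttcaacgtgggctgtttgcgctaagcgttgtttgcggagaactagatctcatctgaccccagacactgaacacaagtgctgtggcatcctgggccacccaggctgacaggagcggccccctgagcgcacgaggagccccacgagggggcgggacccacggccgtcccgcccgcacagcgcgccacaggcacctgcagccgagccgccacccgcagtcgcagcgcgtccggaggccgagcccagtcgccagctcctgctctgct
Slc27a4: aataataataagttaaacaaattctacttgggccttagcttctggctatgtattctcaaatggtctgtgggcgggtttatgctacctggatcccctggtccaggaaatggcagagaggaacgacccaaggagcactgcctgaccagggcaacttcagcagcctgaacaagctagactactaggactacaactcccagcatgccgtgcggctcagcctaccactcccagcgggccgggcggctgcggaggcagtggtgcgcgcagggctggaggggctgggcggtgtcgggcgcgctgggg
Acsl1 upstream start: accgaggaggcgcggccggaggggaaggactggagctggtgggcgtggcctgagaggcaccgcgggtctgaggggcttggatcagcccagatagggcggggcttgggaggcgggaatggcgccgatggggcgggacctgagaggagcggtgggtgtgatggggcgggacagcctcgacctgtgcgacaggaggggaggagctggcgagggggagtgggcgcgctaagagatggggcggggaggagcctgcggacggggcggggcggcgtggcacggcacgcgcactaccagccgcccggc
Acsl1 downstream start: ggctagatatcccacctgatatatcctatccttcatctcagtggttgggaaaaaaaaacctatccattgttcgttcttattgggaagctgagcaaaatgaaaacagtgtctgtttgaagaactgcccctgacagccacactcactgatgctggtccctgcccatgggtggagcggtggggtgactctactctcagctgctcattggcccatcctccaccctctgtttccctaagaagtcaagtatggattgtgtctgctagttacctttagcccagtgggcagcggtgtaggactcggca

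The direct repeat occurred in 1 of the 10 windows, that of Fabp1, from position -67 to -55 relative to the start site, and in 125 of 32851 RefSeq windows of the same length (0.381%). The perfect repeat AGGTCANAGGTCA was in 0 of the 10 windows and in 0.0396% of all. The half-site alone was in the windows of Cd36, Fabp1 and Slc27a2, 3 of 10, and in 16.3% of all windows.

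Of core promoter elements, searched on both strands, Fabp1 held the TATA box (TATAAA) from -30 to -25, a match found in 13.6% of all windows. The upstream Acsl1 window had a GC content of 74% and 7 matches to the GC box (GGGCGG), some of them overlapping, and the downstream one a GC content of 50%, 2 matches to the CCAAT box and none to the GC box. The GC box was in 35.7% and the CCAAT box in 37.4% of all windows. The counts are summed over each gene, so which Acsl1 start was used in either group was not measured.

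Among the genes of uptake, Slc27a2 (ENSMUSG00000027359, chr2:126552407-126588243, plus strand) encodes a protein that both takes up fatty acids and activates very-long-chain ones. Its levels were 1977, 1645, 1521 and 1631 CPM in AAV8-GFP mice 303, 311, 314 and 315 and 3089, 2637, 2237 and 2465 CPM in AAV8-AGXT mice 308, 309, 316 and 319. The lowest AAV8-AGXT mouse lay above the highest AAV8-GFP mouse, and the log2 fold change was 0.62 ± 0.15 (SE, 95% interval 0.28 to 0.96), with an adjusted p of 0.0516 in edgeR. The adjusted p was 0.00058 in DESeq2 and 0.0438 in limma-voom, and Slc27a2 was called in 4 of 9 other settings and in 0 of 8 edgeR fits with a mouse left out, where the adjusted p was 0.0552 to 0.172. Slc27a2 overlaps an antisense gene, Gm26697, whose group means were 0.535 (GFP) and 0.596 CPM (AGXT).

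Slc27a4 (ENSMUSG00000059316, chr2:29802634-29817522, plus strand), the transport protein known from intestine and skin, was measured at a far lower level. It had 51.5, 43.2, 44.7 and 45.0 CPM in AAV8-GFP mice and 73.1, 56.1, 58.3 and 63.0 CPM in AAV8-AGXT mice. Again no AAV8-GFP mouse reached the lowest AAV8-AGXT mouse, and the log2 fold change was 0.44 ± 0.11 (SE, 95% interval 0.20 to 0.68, edgeR adjusted p = 0.0510). DESeq2 gave an adjusted p of 0.0079, and limma-voom 0.0531. Of the 9 other settings 3 called Slc27a4, and of the 8 fits with a mouse left out 1 did, that without mouse 309 (edgeR adjusted p = 0.0484), while the largest adjusted p was 0.176, without mouse 311.

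Cd36 (ENSMUSG00000002944, chr5:17781690-17888801, minus strand), a scavenger receptor that binds long-chain fatty acids and oxidized lipoproteins, is expressed by hepatocytes, macrophages, endothelium and adipocytes. Its levels were 156, 136, 186 and 177 CPM in AAV8-GFP mice and 175, 253, 204 and 167 CPM in AAV8-AGXT mice. Mouse 309 was the highest, the groups overlapped, and the log2 fold change of 0.29 ± 0.16 (SE, 95% interval -0.07 to 0.64) did not pass the test (edgeR adjusted p = 0.28). Without mouse 309 it was 0.14.

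Because Cd36 has several cellular sources, marker lists were read beside it. All 10 lipid-associated macrophage markers had lower means in AAV8-AGXT mice, 2 of them (Cd9 and Cd63) past the threshold, beside 1.90% of all tested genes called lower. By edgeR 8 of the 10 had an unadjusted p under 0.05, beside 26.2% of all tested genes. The summed level of the 10 was 849 to 1471 CPM in AAV8-GFP mice and 379 to 813 CPM in AAV8-AGXT mice. Of 12 general macrophage markers 0 were called and 5 had an unadjusted p under 0.05, 3 lower (Cd68, Itgam and C1qa) and 2 higher (Timd4 and Marco), beside 26.2% of all tested genes, with sums of 830.3 to 1400.5 and 381 to 1413 CPM, and of 12 endothelial markers 0 were called in edgeR and 0 had an unadjusted p under 0.05, with sums of 207 to 325 and 191 to 394 CPM. Mouse 319 had the macrophage sum of 1413 CPM. It also had 13.6 CPM of Timd4 and 156 CPM of Marco, where the other AAV8-AGXT mice had 1.34 to 3.04 and 5.94 to 12.4 CPM. Cd36 itself had a higher mean in the group in which lipid-associated macrophage markers had lower means. In bulk liver, fewer cells of a type and less RNA per cell cannot be told apart, and the part of these cells in the Cd36 level was not tested.

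Among the binding proteins, Fabp1 (ENSMUSG00000054422, chr6:71199827-71205023, plus strand), the cytosolic carrier of hepatocytes, was the most abundant of the 10 genes per kilobase of transcript. It had 5491, 5488, 3924 and 5420.1 CPM in AAV8-GFP mice and 11156, 5799, 5581 and 6717 CPM in AAV8-AGXT mice. Groups did not overlap, but the lowest AAV8-AGXT mouse, 316, lay only just above mouse 303, and mouse 308 was far above the other 7. The log2 fold change was 0.53 ± 0.24 (SE, 95% interval -0.02 to 1.07, edgeR adjusted p = 0.205), and without mouse 308 it was 0.23.

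Fabp2 (ENSMUSG00000023057, chr3:122895072-122899506, plus strand), the binding protein named for the intestine, was present in all livers. Its levels were 220.0, 228, 218 and 246 CPM in AAV8-GFP mice and 409, 235, 269 and 291 CPM in AAV8-AGXT mice. Mouse 309 fell within the AAV8-GFP range and mouse 308 was again the highest, with a log2 fold change of 0.40 ± 0.17 (SE, 95% interval 0.03 to 0.78, edgeR adjusted p = 0.166). Without mouse 308 it was 0.20. Of 9 gut and pancreas markers 3 were tested and 0 were called by edgeR, with 1 (Vil1, lower) at an unadjusted p under 0.05, beside 26.2% of all tested genes. Their summed level was 74.5 to 144 CPM in AAV8-GFP mice and 74.8 to 174 CPM in AAV8-AGXT mice. Cdx2, Sis and Cpa1 had 0 counts in all 8 mice, whereas the group means were 92.8 (GFP) and 103 CPM (AGXT) for Lgals4, 14.0 and 11.7 CPM for Cela1, and 1.51 and 0.466 CPM for Vil1. Their part in the Fabp2 level was not tested.

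Fabp4 (ENSMUSG00000062515, chr3:10204088-10208576, minus strand) is the binding protein of adipocytes, macrophages and capillary endothelium rather than of hepatocytes. It had 263, 119, 106 and 84.8 CPM in AAV8-GFP mice and 33.7, 148, 76.4 and 131 CPM in AAV8-AGXT mice. The groups overlapped, with mouse 303 the highest of all and AAV8-AGXT mice 308 and 316 below every AAV8-GFP mouse. The log2 fold change was -0.56 ± 0.46 (SE, 95% interval -1.59 to 0.47, edgeR adjusted p = 0.471), the widest interval of the 10 genes. It was -0.09 without mouse 303 and -0.29 without mouse 308. Of 8 adipocyte-list genes, Adipoq, Plin1, Retn and Ucp1 were at or near 0 in every mouse and Lep had 0 counts in all. The 3 that were tested all had higher means in AAV8-AGXT mice. Cfd was called higher (log2 fold change 1.93, edgeR adjusted p = 0.0487), beside 2.45% of all tested genes. Cidea (means 74.9 and 146 CPM) and Car3 (662 and 710 CPM) were not called. The part of adipocytes, macrophages and endothelium in the Fabp4 level was not tested.

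For activation, Acsl1 (ENSMUSG00000018796, chr8:46471037-46536051, plus strand) supplies acyl-CoA for mitochondrial oxidation and for triglyceride synthesis. Its levels were 1169.7, 721, 578 and 717 CPM in AAV8-GFP mice and 2296, 1956, 1223 and 1363 CPM in AAV8-AGXT mice, or 796 ± 258 and 1709 ± 504 CPM (SD, n = 4). The groups did not overlap, although AAV8-GFP mouse 303 came close to AAV8-AGXT mouse 316. The log2 fold change was 1.10 ± 0.27 (SE, 95% interval 0.51 to 1.69), with an adjusted p of 0.0492 in edgeR, 0.0014 in DESeq2 and 0.0436 in limma-voom.

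The call of Acsl1 rested close to the threshold. It was held in edgeR without mouse 303 (adjusted p = 0.0475) and without mouse 316 (0.0490), and was lost without mouse 308 (0.101), 309 (0.0761), 311 (0.169), 314 (0.125), 315 (0.0749) or 319 (0.0902). Across these 8 fits its log2 fold change stayed between 0.91 and 1.35. Higher calls among all tested genes were 374 with all mice. They were 86 without mouse 308, 379 without 309, 2 without 311, 11 without 314, 304 without 315 and 12 without 319. The call was also lost in edgeR with DESeq2's size factors (adjusted p = 0.0519), at least 10 counts in every mouse (0.0557), upper-quartile scaling (0.0601) and total counts (0.0607). An antisense gene, Gm45244, overlaps Acsl1, did not pass the low-count filter, and the strand setting of the counting is not given in the sources used here.

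Acsl5 (ENSMUSG00000024981, chr19:55251938-55297720, plus strand), found on mitochondria and the endoplasmic reticulum, was next in level among the synthetases. It had 235, 202, 220.0 and 227 CPM in AAV8-GFP mice and 326, 242, 215 and 256 CPM in AAV8-AGXT mice. All but mouse 308 lay close together, and the log2 fold change was 0.23 ± 0.14 (SE, 95% interval -0.08 to 0.55, edgeR adjusted p = 0.324), or 0.09 without mouse 308. Acsl5 overlaps Zdhhc6 on the other strand, whose group means were 65.3 (GFP) and 81.6 CPM (AGXT).

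Acsl4 (ENSMUSG00000031278, chrX:142317993-142390535, minus strand), which prefers arachidonic acid, had 27.8, 27.2, 33.4 and 26.3 CPM in AAV8-GFP mice and 30.3, 42.2, 31.0 and 38.6 CPM in AAV8-AGXT mice. Mouse 314 overlapped the AAV8-AGXT range, and the log2 fold change was 0.31 ± 0.13 (SE, 95% interval 0.01 to 0.61, edgeR adjusted p = 0.178). Acsl3 (ENSMUSG00000032883, chr1:78657825-78707743, plus strand), a synthetase of the endoplasmic reticulum and lipid droplets, was the scarcest of the 10. Its levels were 12.8, 8.78, 14.9 and 13.2 CPM in AAV8-GFP mice and 8.08, 9.13, 8.68 and 11.8 CPM in AAV8-AGXT mice. Mouse 311 lay among the AAV8-AGXT mice, and the log2 fold change was -0.39 ± 0.19 (SE, 95% interval -0.81 to 0.02, edgeR adjusted p = 0.214). Acsl3 overlaps Utp14b on the same strand, whose group means were 2.98 (GFP) and 3.44 CPM (AGXT).

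**Figure D2:**
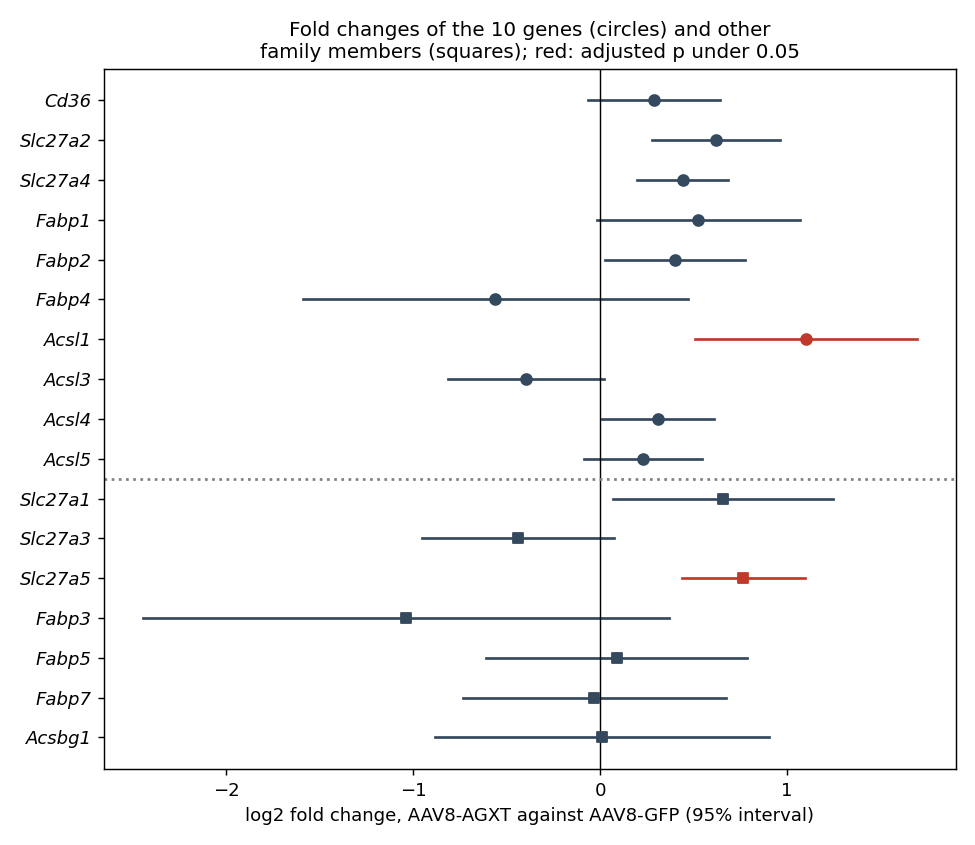
Log2 fold change of AAV8-AGXT against AAV8-GFP mice (x axis) with its 95% interval for the 10 genes (circles, above the dotted line) and the tested genes of the same families (squares); red marks an edgeR adjusted p under 0.05, reached by Acsl1 and Slc27a5. The intervals of Slc27a2, Slc27a4, Fabp2, Acsl4 and Slc27a1 also lie above 0, and that of Fabp4 is the widest among the circles.

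Hepatocyte markers were read beside the genes that separated the groups. Of 12 markers, 11 had higher means in AAV8-AGXT mice and Trf a lower one, where 7974 of all 15248 tested genes had a log2 fold change above 0. By edgeR 1 (Cps1) was called higher, beside 2.45% of all tested genes. The median log2 fold change was 0.38, close to the 0.36 of the 10 fatty acid genes. Their summed level was 57678 to 68961 CPM in AAV8-GFP mice and 69244 to 93081 CPM in AAV8-AGXT mice, without overlap. With the TMM factors removed, AAV8-GFP mouse 314 lay above AAV8-AGXT mouse 316, so these sums overlapped. Markers of stellate cells summed to 521 to 919 CPM in AAV8-GFP mice and to 262 to 608 CPM in AAV8-AGXT mice (8 of 10 with lower means, 1 called lower, beside 1.90% of all tested genes), and those of cholangiocytes to 255 to 717 and 107 to 305 CPM (8 of 8 with lower means, 0 called by edgeR and 7 at an unadjusted p under 0.05, beside 26.2% of all tested genes). Spp1, which is in both the cholangiocyte and the lipid-associated macrophage list, had means of 484 (GFP) and 157 CPM (AGXT). The mean sums were 574 and 210 CPM for the cholangiocyte list and 1205 and 607 CPM for the lipid-associated macrophage list. The part of the cells that these marker lists stand for in the levels of Slc27a2, Slc27a4, Fabp1 and Acsl1 was not tested.

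Per kilobase of the longest protein-coding transcript, levels spanned more than 3 orders of magnitude. In AAV8-GFP mice Fabp1 stood at 9188 CPM per kb, followed by Slc27a2 at 580.3, Fabp2 at 236, Acsl1 at 204, Fabp4 at 160.0, Acsl5 at 52.1, Cd36 at 48.1, Slc27a4 at 11.4, Acsl4 at 5.43 and Acsl3 at 3.15. The mice of neighbouring genes overlapped for Fabp2 and Acsl1, Acsl1 and Fabp4, and Acsl5 and Cd36, so that these were not separable in order. In AAV8-AGXT mice the same 10 levels were 13225, 893, 312, 439, 108, 61.2, 58.7, 15.4, 6.73 and 2.39 CPM per kb. Acsl1 thus had a higher mean than Fabp2, the reverse of the AAV8-GFP order, although its mice still overlapped those of Fabp2. Fabp4 and Acsl5, and Acsl5 and Cd36, overlapped as well.

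A share within a family does not depend on how libraries are scaled to each other. Acsl1 made up 66.4%, 58.6%, 50.1% and 55.6% of the summed level of Acsl1, Acsl3, Acsl4, Acsl5 and Acsl6 per kb of merged exons in AAV8-GFP mice, and 74.6%, 75.8%, 69.2% and 67.5% in AAV8-AGXT mice. The share was thus higher in every AAV8-AGXT mouse, 71.8 ± 4.04% against 57.7 ± 6.78% (SD, n = 4 each; exact permutation test, two-sided, p = 0.0286, the minimum for 4 against 4, and 0.0857 after adjustment over 3 shares). Merged exons include retained-intron models that lengthen Acsl1, and per kb of the longest coding transcript, a length chosen after seeing the data, the shares were 76.2% and 85.8%. On that scale the share of Acsl5 was 20.4% and 12.3%, although its mean level was not lower, at 221 (GFP) and 260 CPM (AGXT).

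After adjustment over the 3 shares none of them passed the adjusted p threshold used for calls, that of Acsl1 included (exact permutation test, adjusted p = 0.0857). For the leading genes of the Fabp and Slc27 families the unadjusted p was above that threshold too. Fabp1 was 96.9 ± 0.369% of Fabp1 to Fabp7 in AAV8-GFP mice and 97.3 ± 0.383% in AAV8-AGXT mice (SD, n = 4 each; exact permutation test, p = 0.171, adjusted over 3 shares 0.257). Slc27a2 was 70% ± 3.73 and 68.3% ± 3.12 of Slc27a1 to Slc27a6 (SD, n = 4 each; exact permutation test, p = 0.571, adjusted 0.571).

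**Figure D3:**
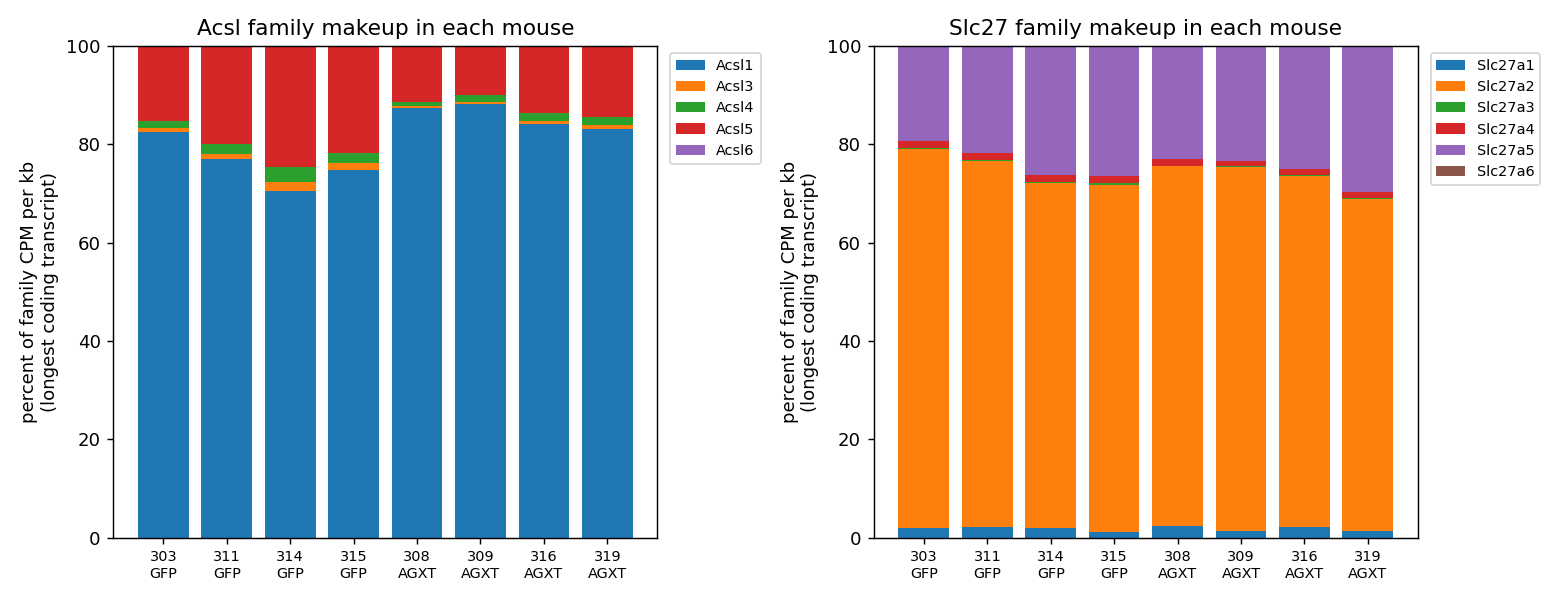
Share of each gene in the summed CPM per kb (longest coding transcript) of the Acsl family (left) and the Slc27 family (right), 1 stacked bar per mouse, y axis in percent from 0 to 100. Acsl1 fills more of the bar in every AAV8-AGXT mouse than in any AAV8-GFP mouse, and the Slc27 bars are mostly Slc27a2 and Slc27a5, whose shares overlap between groups, while the small shares of Slc27a4 (1.40% to 1.48% against 1.13% to 1.34%) and Slc27a3 do not. The level of Slc27a4 itself was not lower, at means of 46.1 (GFP) and 62.6 CPM (AGXT).

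Of the other members of these families, 7 of 10 passed the low-count filter and 1 was called higher, beside 2.45% of all tested genes. Slc27a5, the bile acid-CoA synthetase and fatty acid transport protein of hepatocytes, had 387, 377, 446 and 480.2 CPM in AAV8-GFP mice and 764, 653, 611 and 848 CPM in AAV8-AGXT mice. It did not overlap between groups and rose by 0.77 ± 0.15 on the log2 scale (SE, edgeR adjusted p = 0.0344). Slc27a1, known from muscle and fat, had a log2 fold change of 0.66 (adjusted p = 0.152, edgeR) and Slc27a3 of -0.44 (0.258). Fabp3, the heart-type binding protein, had -1.04 (0.322), Fabp5 0.09 (0.886), Fabp7 -0.03 (0.964), and Acsbg1 0.01 (0.993). Slc27a6 and Acsl6 did not pass the filter, with at most 10 and 2 counts in a mouse, and Fabp6, the ileal bile acid-binding protein, had 0 counts in all 8 mice.

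In the wider pathway, 51 of 56 listed genes were tested and 5 were called higher and 0 lower by edgeR. Of these 51, 36 had a log2 fold change above 0, beside 7974 of all 15248 tested genes. An unadjusted p under 0.05 was found for 30, of which 5 were lower, beside 26.2% of all tested genes. Together with the family members that made 6 higher calls among 58 genes, with a median log2 fold change of 0.27, against 2.45% called higher among all tested genes. The groups did not overlap for 18 of the 58 with AAV8-AGXT higher and for 1, Acot9, with AAV8-AGXT lower, beside 8.93% and 7.63% of all tested genes. DESeq2 called 19 of the 58 higher and 5 lower, where it called 1077 (7.06%) and 1054 of all tested genes.

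Among other acyl-CoA synthetases, 9 of 11 genes were tested and 2 were called higher, beside 2.45% of all tested genes. Acsm3, a medium-chain synthetase of mitochondria, rose from a mean of 30.6 CPM (SD 5.87) to 57.8 CPM (SD 16.0), by 0.92 ± 0.20 on the log2 scale (SE, edgeR adjusted p = 0.0406). Acss2, which makes acetyl-CoA from acetate in cytosol and nucleus, rose from a mean of 37.4 CPM (SD 1.83) to 51.4 CPM (SD 0.668), by 0.46 ± 0.08 on the log2 scale (SE, edgeR adjusted p = 0.0292), with the smallest SE among the called genes of these lists. Acsm1 was the most abundant of the list per kilobase, at 122 and 164 CPM per kb (log2 fold change 0.42, edgeR adjusted p = 0.0826).

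Thioesterases reverse the activation step by splitting acyl-CoA. Of 14 listed genes 12 were tested. Acot12, an acetyl-CoA thioesterase of hepatocyte cytosol, was the only one called, beside 2.45% of all tested genes called higher. It had 108, 86.8, 94.5 and 97.1 CPM in AAV8-GFP mice and 192, 154, 171 and 165 CPM in AAV8-AGXT mice, without overlap, and rose by 0.82 ± 0.11 on the log2 scale (SE, edgeR adjusted p = 0.0198). Acot13 was the most abundant thioesterase per kilobase in AAV8-GFP mice, at 108 CPM per kb beside 107 for Baat, the bile acid conjugating enzyme, and had 86.8 CPM per kb in AAV8-AGXT mice (log2 fold change -0.31, edgeR adjusted p = 0.103). Of the acyl-CoA and lipid-binding proteins 6 of 7 were tested and 0 were called by edgeR, with 2 at an unadjusted p under 0.05, beside 26.2% of all tested genes. Dbi, the acyl-CoA-binding protein and the most abundant of them per kilobase, had a log2 fold change of 0.10 ± 0.20 (SE, edgeR adjusted p = 0.797).

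Of 13 lipases and uptake partners, 13 were tested and 1 was called higher, beside 2.45% of all tested genes. Lipg, endothelial lipase, which acts on lipoprotein phospholipids, had 3.67, 9.92, 3.51 and 8.12 CPM in AAV8-GFP mice and 23, 15.2, 11.5 and 20.6 CPM in AAV8-AGXT mice (log2 fold change 1.47 ± 0.36 SE, edgeR adjusted p = 0.0498). Got2, the mitochondrial aspartate aminotransferase that is also described as a plasma membrane fatty acid-binding protein, was the most abundant of this list per kilobase in AAV8-GFP mice, and in AAV8-AGXT mice Mfsd2a had the higher mean (237 against 209 CPM per kb; Got2 log2 fold change 0.39, edgeR adjusted p = 0.123). Of 11 transcription factors, 11 were tested and 1 was called higher, beside the same 2.45%. Ppara, which encodes PPARα, had 44.7, 37.6, 49.5 and 41.3 CPM in AAV8-GFP mice and 95.9, 62.8, 59.4 and 102 CPM in AAV8-AGXT mice, without overlap (log2 fold change 0.89 ± 0.19 SE, edgeR adjusted p = 0.0376). Hnf4a, a master factor of hepatocytes and the most abundant of the list per kilobase, had a log2 fold change of 0.46 (edgeR adjusted p = 0.0765).

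Each of these 6 calls was lost without mouse 311, at edgeR adjusted p of 0.108 for Acot12, 0.116 for Lipg, 0.126 for Acss2, 0.13 for Slc27a5, 0.143 for Ppara and 0.148 for Acsm3, and each was also lost without mouse 314 (0.0738 to 0.114) and without mouse 319 (0.0648 to 0.116). Further losses came without mouse 308 for Slc27a5, Acsm3, Acss2, Lipg and Ppara (0.0547 to 0.101), without mouse 303 for Slc27a5, Acsm3, Lipg and Ppara (0.0671 to 0.0929), without mouse 315 for Acsm3, Lipg and Ppara (0.0555 to 0.0566), and without mouse 309 (0.0631) or mouse 316 (0.0519) for Lipg. Calls were lost across the whole set of tested genes as well. Higher calls were 374 with all mice, 2 without mouse 311, 11 without mouse 314 and 12 without mouse 319. The log2 fold changes of the 6 genes stayed above 0 in every fit with a mouse left out. Of the 9 other settings 3 called Lipg, and the other 6 gave it an adjusted p of 0.0526 to 0.0591. With total counts Acss2 had a log2 fold change of 0.22 (edgeR adjusted p = 0.167) and Acsm3 of 0.69 (0.0693), both no longer called.

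**Figure D4:**
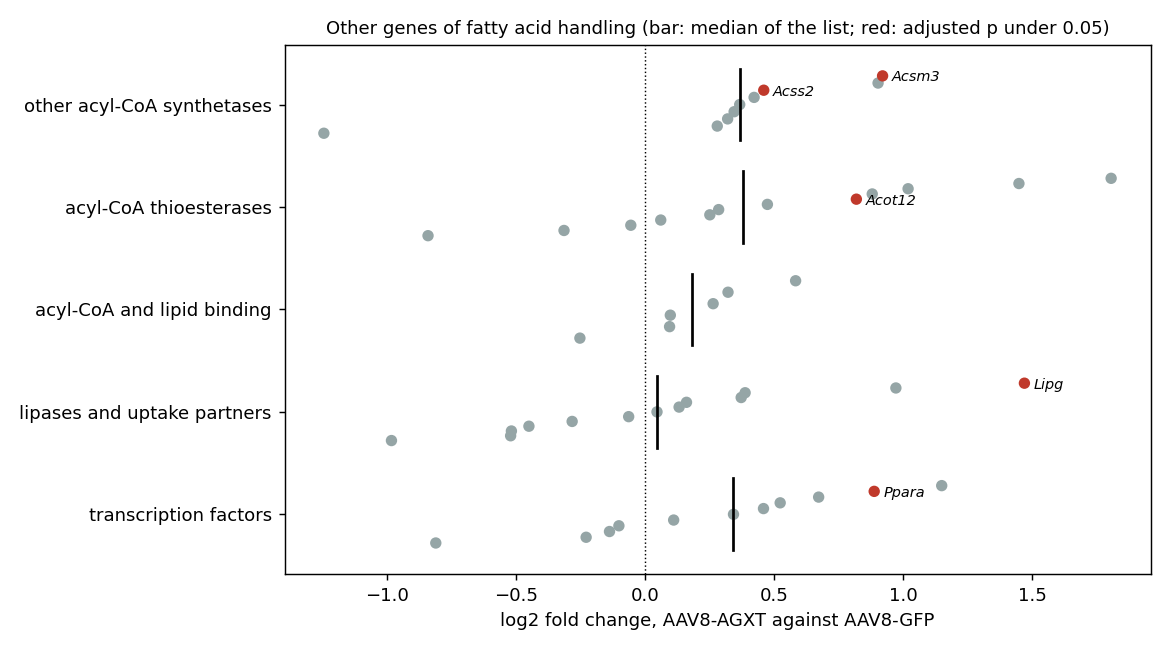
Log2 fold change (x axis) of each tested gene in 5 lists of other genes of fatty acid handling, 1 point per gene, with the list's median as a vertical bar and genes with an edgeR adjusted p under 0.05 named in red. The medians lie between 0.05 (lipases and uptake partners) and 0.38 (acyl-CoA thioesterases), and the points of each list lie on both sides of 0.

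The 10 genes did not all follow the same order of mice. Over log2 CPM of the 8 mice, Slc27a2 had a Pearson r of 0.98 with Acsl1 and 0.95 with Slc27a4, and Fabp1 had 0.92 with Fabp2, whereas Cd36 had -0.06 with Fabp1 and Fabp4 had -0.80 with Fabp2. These values describe 8 libraries that share the difference between groups, mouse 308 and the scaling. Of all tested genes, those with the pattern most like Acsl1 were A730036I17Rik (r = 0.997 over 8 mice, at 0.562 and 1.26 CPM) and Decr2 (0.989), and those most like Slc27a2 were Decr2 (0.994), which encodes a peroxisomal dienoyl-CoA reductase, and Chrna2 (0.990). Hsd17b10 (0.994) and Adck1 (0.991) were most like Slc27a4, Pnpla7 (0.973) and Mtch2 (0.972) most like Fabp1, and Gm24494 (0.991) and BC024139 (0.990) most like Fabp2. Gm24494 was near the floor, at means of 0.506 (GFP) and 0.848 CPM (AGXT).

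For the remaining genes, Agbl3 (0.978) and Usp15 (0.976) were most like Cd36, Amot (0.952) and Traf3ip2 (0.945) most like Fabp4, and Gm16335 (0.922) and Rab23 (0.922) most like Acsl3. Zdhhc3 (0.976) and Gm35570 (0.972) were most like Acsl4, and Pelo (0.977) and Ttc19 (0.966) most like Acsl5. Gm35570 and Gm16335 were also at low levels, with means of 0.483 and 2.22 CPM (GFP) and 1.17 and 0.473 CPM (AGXT). Decr2 was the only gene named for 2 of the 10.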

How the data were processed

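Liver mRNA of 8 mice was sequenced as stranded paired-end libraries, 1 per mouse. The authors trimmed the reads with Trimmomatic 0.35, aligned them to GRCm38 with HISAT2 and used HTSeq to count pairs per Ensembl gene, and the deposited values are raw counts per gene; FastQC 0.11.8 is also named in the submitters' processing notes, and the strand setting is not given in the sources used here. Genes were matched to GENCODE M21 (52489 of 52636). In R 4.3.3, edgeR 4.0.16 (filterByExpr, TMM, quasi-likelihood test, treatment as the only term) was run on all 8 mice, with Benjamini-Hochberg adjustment over 15248 genes and calls at an adjusted p under 0.05. The fit was tested on simulated data. CPM are TMM-scaled, log2 CPM used a prior count of 2, and fold changes a prior count of 0.125. Between 17095433 and 28780140 read pairs per mouse lay on genes, and the common coefficient of biological variation was 23.3%. Family shares used exact two-sided permutation tests over 70 arrangements.

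The members, lists and named genes were chosen with earlier results of these data known. Named genes were the 10 members, every gene of their families, pathway genes that were called or led their list in level per kilobase in AAV8-GFP mice, and the 2 genes most like each member by Pearson r. Alternatives were DESeq2 1.42.0, limma 3.58.1 voom with and without quality weights, robust estimation, other scalings and filters, other lengths for the shares, and each mouse left out. Each library is a separate animal by its number in the labels, no pair of libraries agreed within sampling noise (chi-square per gene at least 33.4), and no library was left out.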

Additional observations from a re-analysis of the deposited data

Results flagged for a closer look

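Fabp1 in AAV8-GFP mice was the 1 result flagged among 62 groups of 4 mice examined, which covered the members, the named family and pathway genes, Agxt and the family shares. Mouse 314 had 3924 CPM and the other 3 mice 5420.1 to 5491 CPM, so that the gap made up 0.955 of the whole range, above Dixon's critical value for 4 samples. Chance flags about 1 in 20 groups. Without mouse 314 the log2 fold change of Fabp1 was 0.39 (edgeR adjusted p = 0.399).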

How the results depend on the processing

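No paired analysis was possible because the animal numbers in the labels are not shared between the groups. Of the 10 genes, 1 was called higher in edgeR, against 3 with DESeq2, with limma voomWithQualityWeights and with robust estimation, 2 with limma-voom, 0 with DESeq2's size factors, upper-quartile scaling, total counts or at least 10 counts in every mouse, and 0 to 1 with a mouse left out. Higher calls among all tested genes were 1077 with DESeq2, 804 with quality weights, 144 with total counts and 2 (without mouse 311) to 379 (without mouse 309) with a mouse left out, and lower calls were 1054, 606, 857 and 0 (without mouse 311) to 325 (without mouse 315). Higher calls among the other pathway and family genes were 19 with DESeq2, 13 with quality weights, 3 with total counts, 11 without a filter and 0 to 7 with a mouse left out, and lower calls were 5, 2, 4 and 2, with 1 in limma-voom and 0 to 1 with a mouse left out. The difference in the Acsl1 share was 11.6 to 17 percentage points with a mouse left out, and leaving out any AAV8-AGXT mouse gave an exact permutation p of 0.0571. The cause of these changes was not tested. No called value changed sign under any of these settings. For single genes, 698 of the recomputed values kept their side of the threshold, 60 were no longer past it and 19 newly passed it. Depth was not limiting for the 10 genes, whose lowest count in any mouse was 117.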
